A study of Rattus norvegicus with 19 samples.

Results

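The features described here are the 104 entries annotated as Piwi-interacting RNAs (piRNAs) in small RNA-Seq data of rat plasma, taken as every entry in the piRNA section of the deposited table, whatever its level. They stand beside 748 mature miRNAs in the same table of 852 features, and the series holds 1238 features once the 386 transfer RNA (tRNA) features are included. The data came from adult male Sprague-Dawley rats, whose tail-vein blood was drawn under isoflurane 2 days after injury or surgery, with 1 library per rat. The 4 naive rats had a short isoflurane anesthesia and no surgery, and the 5 sham-operated controls had anesthesia and a craniectomy without an impact. The 5 rats with mild traumatic brain injury (mTBI) and the 5 rats with severe traumatic brain injury (sTBI) had the same craniectomy followed by a lateral fluid-percussion impact. Surgery came with lidocaine at the incision, and with buprenorphine and saline afterwards. Injured rats had further saline on the next day, and sTBI rats were given soft food. A difference from naive rats therefore includes the surgery and its drugs, and only the sham-operated controls share these with the injured rats. Blood was sampled at a single time, so no course over time can be read.

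In animals, piRNAs guide Piwi proteins to the transcripts of transposons and silence them, and they are best known from the germ line. They are longer than miRNAs and are made from single-stranded precursors without Dicer. Databases of piRNAs also list small RNAs whose sequence lies within other noncoding RNAs, among them tRNAs, so an annotation as a piRNA does not by itself show that a read was bound to a Piwi protein. Plasma holds fragments of tRNAs in large amounts, and 5' fragments of glycine and glutamate tRNAs are a known part of circulating small RNA. The sequences of the 104 piRNA entries were not in the sources used here, so none is printed, and how reads that match both a piRNA entry and a tRNA were assigned was not given in them.

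Each library held 16241433 to 21517763 sequenced reads. Counts are of unique molecular indices (UMIs), random tags that let PCR copies of 1 molecule be counted once, and a library held 2409545 to 5866757 UMIs of mature miRNAs and 37127 to 245607 UMIs of piRNA features. All levels below are UMIs per 1000000 mature miRNA UMIs of the same library, written as CPM, unless another scale is named. When miRNA UMIs were divided by spike-in UMIs, the 4 highest libraries were naive 1, naive 3, mTBI 2 and mTBI 5, at 12.6 to 16.8, and the others were at 5.53 to 9.37. Where a call changed without these 4, both values are given. The 5 erythrocyte miRNAs on the marker list (among them miR-451-5p and miR-16-5p) and the 5 of leukocytes and platelets (among them miR-223-3p) were all counted and summed to 166259 to 364722 and 63665 to 131755 CPM. All 22 arms of the X-linked miRNA cluster that is abundant in testis were counted in at least 1 library, and their sum was 53.1 to 189 CPM, with means of 95.9 in the naive, 146 in the sham-operated, 100.4 in the mTBI and 146 in the sTBI group. The liver miRNA miR-122-5p averaged 69243, 78526, 71807 and 45201 CPM in the same order.

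A single feature made most of the piRNA class. rno_piR_001199 was the largest piRNA feature in 19 of 19 libraries and held 43.1 to 79.4% of a library's piRNA UMIs. Its mean level was 21160 CPM, 5.20 times that of the second feature, and only 10 mature miRNAs and 5 tRNA features had a higher mean. rno_piR_005567 followed with a mean of 4071, rno_piR_005595 with 2609 and rno_piR_000194 with 1016 CPM. The second place within a library was taken by rno_piR_005567 in 16 libraries and by rno_piR_005595 in 3. The 4 features together held 78.1 to 97.4% of the class, and the 15 most abundant held 92.2 to 99.2%. The effective number of features, the inverse of the summed squared shares, was 2.26 ± 0.579 (SD, n = 19), so a class of 104 names was as uneven as if little more than a pair of equal features made it.

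**Figure D1:**
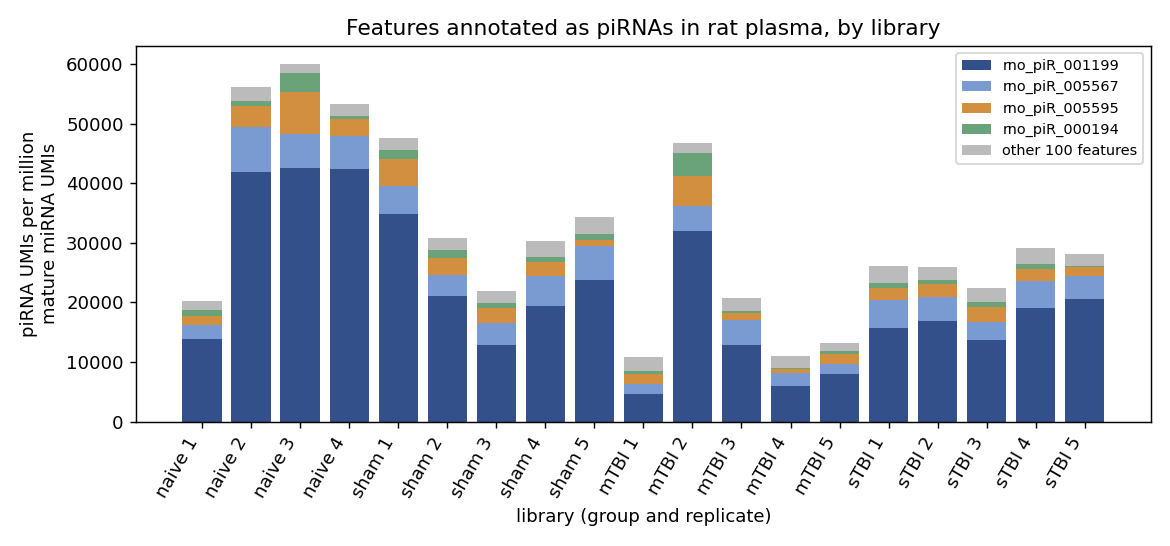
Stacked bars of UMIs per 1000000 mature miRNA UMIs for the 4 most abundant piRNA features and the sum of the other 100, one bar for each of the 19 libraries by group and replicate. rno_piR_001199 is the largest part of every bar, and naive 1 (20188.7) and mTBI 2 (46705.2) stand apart from the other libraries of their groups.

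Below these 4, levels were much lower. rno_piR_005598 averaged 364 CPM and was the steadiest of the 5 most abundant features, with a coefficient of variation of 18.7% over the 19 libraries against 57.1% for rno_piR_001199, 36.6% for rno_piR_005567, 59.2% for rno_piR_005595 and 92.2% for rno_piR_000194. The next features were rno_piR_009003 at 285, rno_piR_005787 at 143, rno_piR_001415 at 132, rno_piR_000119 at 130 and rno_piR_005700 at 121 CPM. rno_piR_005901 (95.4), rno_piR_001198 (65.7), rno_piR_001414 (62.2), rno_piR_008174 (58.1) and rno_piR_005359 (48.9) completed the 15 most abundant. Of all 104 features, 10 had a mean over 100 CPM and 67 a mean under 10, and the median of the means was 4.55.

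Many members rested on few molecules. Of the 104 features, 47 were counted in every library, 35 in fewer than 10 libraries and 10 in 1 library only, and 35 never reached 20 UMIs in any library. A library had 60 to 82 piRNA features with a count, and this number did not separate the groups (Kruskal-Wallis statistic in a permutation test of 100000 resamples, p = 0.925, adjusted p = 0.925 over 8 measures tested the same way). In 7 libraries no piRNA feature had a count from 1 to 9, and the other 12 libraries had 2 to 16 such features, so the lowest count kept differed between libraries and a 0 for a rare feature does not have the same meaning in each. Features with at least 10 UMIs averaged 62.25 in naive, 67.4 in sham-operated, 69.6 in mTBI and 69.0 in sTBI libraries. That number did not separate the groups either (same permutation test, p = 0.139, adjusted p = 0.223). Counted as reads, with PCR copies included, rno_piR_001199 held 37.7 to 77.3% of the class, close to its share of UMIs. rno_piR_001199 had 1.21 reads per UMI and rno_piR_005567 1.19, the highest among the 15 most abundant was 1.86 for rno_piR_005359, and the class had 1.10 to 1.59 reads per UMI per library against 1.19 to 2.24 for mature miRNAs.

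The share held by rno_piR_001199 was 73.3 ± 4.80% (SD, n = 4) in the naive group, 66.7 ± 5.67% (SD, n = 5) in the sham-operated group, 57.7 ± 9.47% (SD, n = 5) in the mTBI group and 65.0 ± 5.15% (SD, n = 5) in the sTBI group. The differences did not pass after adjustment (permutation test of the Kruskal-Wallis statistic, p = 0.0228, adjusted p = 0.132 over 8 measures). The effective number was 1.80 ± 0.211 (SD, n = 4) in the naive group and 2.79 ± 0.843 (SD, n = 5) in the mTBI group, with the same outcome (permutation p = 0.0329, adjusted p = 0.132).

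Relative to mature miRNAs, the summed piRNA class was highest in naive rats and lowest after mTBI, and on this scale no pair of groups passed the test after adjustment. By their means, the order of the injured groups depended on the denominator. Per spike-in UMI the mean was 0.480 ± 0.287 (SD, n = 4) in the naive group, 0.259 ± 0.109 (SD, n = 5) in the sham-operated group, 0.261 ± 0.298 (SD, n = 5) in the mTBI group and 0.174 ± 0.0136 (SD, n = 5) in the sTBI group, so the lowest mean was then that of sTBI. The mTBI mean included mTBI 2 at 0.787, and the lowest median was still that of mTBI (0.167, against 0.170 for sTBI). The naive libraries were at 20189, 56225, 60046 and 53349 CPM for replicates 1 to 4. The sham-operated controls were at 47528, 30873, 21985, 30267 and 34311. After mTBI the values were 10880, 46705, 20824, 10954 and 13248, and after sTBI they were 26157, 25947, 22415, 29098 and 28199. Naive 1 lay below all sham-operated controls and mTBI 2 above all but 1 of them, so every group overlapped with the naive rats, while the sTBI libraries lay close together. The means were 47452 ± 18382 (SD, n = 4), 32993 ± 9302 (SD, n = 5), 20522 ± 15191 (SD, n = 5) and 26363 ± 2582 (SD, n = 5) in the same order.

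Over the 4 groups the class total gave a permutation p of 0.0554 (Kruskal-Wallis statistic, adjusted p = 0.148 over 8 measures). Without naive 1 the adjusted permutation p was 0.0298, without mTBI 2 it was 0.0487 and without the 4 libraries of high miRNA to spike-in ratio it was 0.00744, so the call depends on these libraries. The 4 include naive 1 and mTBI 2, and all come from the naive and mTBI groups, which are then smaller still. The mean log2 total after mTBI differed from that in naive rats by -1.34 (two-sided exact permutation test, p = 0.0476, adjusted p = 0.190 over 6 pairs) and from that in sham-operated controls by -0.89 (exact p = 0.0714, adjusted p = 0.190). Without mTBI 2 the latter difference was -1.25 and sTBI against mTBI was 0.96, both with an adjusted exact p of 0.0238. sTBI differed from naive rats by -0.73 (exact p = 0.0952, adjusted p = 0.190). This comparison passed per spike-in UMI (-1.30, adjusted exact p = 0.0476) and with no denominator (-0.91, adjusted exact p = 0.0476). Sham-operated controls differed from naive rats by -0.45 (exact p = 0.254, adjusted p = 0.254), sTBI from sham-operated controls by -0.28 (exact p = 0.175, adjusted p = 0.210; -0.42 with an adjusted exact p of 0.0476 without sham 3) and sTBI from mTBI by 0.60 (exact p = 0.143, adjusted p = 0.210), the last of which turned to -0.0115 per spike-in UMI. With 5 against 5 libraries the smallest p this test can give is 0.00794.

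That order of the groups came from the 4 most abundant features. The sum of the other 100 piRNA features was 1873 ± 414 (SD, n = 4) CPM in naive rats, 2340 ± 398 (SD, n = 5) in the sham-operated group, 1925 ± 412 (SD, n = 5) in the mTBI group and 2424 ± 347 (SD, n = 5) in the sTBI group (permutation test of the Kruskal-Wallis statistic, p = 0.231, adjusted p = 0.369 over 8 measures). The summed testis-cluster miRNAs given above had a like order of group means. So did the erythrocyte miRNAs, at 260529, 280272, 277227 and 303590 CPM in the naive, sham-operated, mTBI and sTBI groups. The leukocyte and platelet miRNAs did too, at 90608, 105387, 100226 and 105861 CPM, while miR-122-5p did not. The part of any of these in this result was not tested. This division of the class was chosen after the values were seen.

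The class total went with the tRNA total of the same library. tRNA features were at 311935 to 1672180 UMIs per 1000000 mature miRNA UMIs, and the groups averaged 1351119 ± 426935 (SD, n = 4) in the naive group, 1080075 ± 222847 (SD, n = 5) in the sham-operated group, 724012 ± 443130 (SD, n = 5) in the mTBI group and 904983 ± 175854 (SD, n = 5) in the sTBI group. That is the order of the piRNA class too. The tRNA differences did not pass either (permutation test of the Kruskal-Wallis statistic, p = 0.107, adjusted p = 0.215). There were 2.28 to 3.93 piRNA UMIs per 100 tRNA UMIs, a much narrower span than that of either total, with 3.42 ± 0.478 (SD, n = 4) in the naive group and 2.80 ± 0.563 (SD, n = 5) in the mTBI group (permutation p = 0.295, adjusted p = 0.393).

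Across the 19 libraries the log2 totals of piRNA and tRNA features had a Pearson r of 0.95 and a Spearman rho of 0.94 (permutation p = 1e-05 for each, the smallest that 100000 resamples can give, adjusted p = 4e-05 over 4 relations). r was 0.94 without the 2 libraries farthest from the median tRNA total, mTBI 1 and mTBI 4, 0.94 without the 4 libraries of high miRNA to spike-in ratio, and 0.93 on values centred within each group. Both totals share the miRNA denominator, which can add to such a relation. Of 27 alternatives, 26 kept a positive r with an unadjusted permutation p under 0.05, among them spike-in UMIs as denominator and no denominator. The 1 that did not was without the 4 most abundant piRNA features. Per spike-in UMI, several single members also followed the tRNA total, as given below.

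The other 3 relations tested were weaker. The piRNA total had an r of 0.11 with the miRNA to spike-in ratio of the library (permutation p = 0.644, adjusted p = 0.703; rho = -0.05, p = 0.833, adjusted p = 0.833). With the hemolysis ratio, in which erythrocyte miR-451-5p is divided by miR-23a-3p, r was -0.09 (permutation p = 0.703, adjusted p = 0.703; rho = -0.13, p = 0.590, adjusted p = 0.787). With the piRNA reads per UMI, r was -0.50 (permutation p = 0.0282, adjusted p = 0.0565; rho = -0.31, p = 0.201, adjusted p = 0.402) on all libraries. It was -0.26 without mTBI 2 and mTBI 4 (permutation p = 0.305), -0.63 without the 4 libraries of high miRNA to spike-in ratio (permutation p = 0.0119) and -0.43 on values centred within each group, so it changed with the libraries kept. Without those 4 libraries the r with the miRNA to spike-in ratio was -0.10 (permutation p = 0.732) and that with the hemolysis ratio -0.25 (permutation p = 0.372).

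Without the 4 most abundant features, the remaining piRNA sum had an r of 0.12 with the tRNA total (permutation p = 0.622). On this scale, the covariation of the class total thus rested on the 4 most abundant features. Single members outside these 4, such as rno_piR_001200, also followed the tRNA total, as given below.

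**Figure D2:**
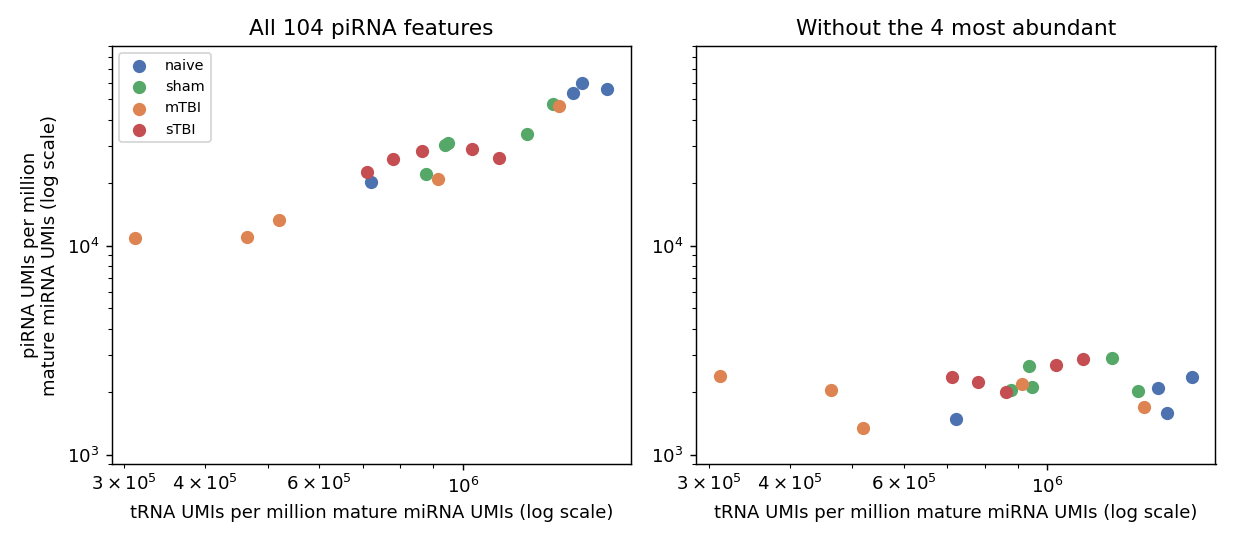
piRNA UMIs against tRNA UMIs, both per 1000000 mature miRNA UMIs on log axes, one point per library and coloured by group, for all 104 piRNA features (left) and without the 4 most abundant (right). The class total climbs with the tRNA total (r = 0.95), while the sum of the other 100 features stays between 1340 and 2886 across the range (r = 0.12).

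Among the 47 piRNA features counted in every library, the Spearman rho with the tRNA total ran from -0.47 to 0.91 with a median of 0.03. The members over 0.7 were 3, rno_piR_005567 at 0.91, rno_piR_001199 at 0.90 and rno_piR_001200 at 0.81, which is 6.38% of the 47. Then came rno_piR_005595 at 0.64, rno_piR_001415 at 0.56, rno_piR_005608 at 0.55, rno_piR_000194 at 0.53 and rno_piR_009003 at 0.52. For comparison, the 610 mature miRNAs counted in every library had a median rho of 0.02, from -0.59 to 0.60, and 0 of them exceeded 0.7. Most piRNA features thus lay in the range of the miRNAs, rno_piR_000194 among them. Above it were rno_piR_005567, rno_piR_001199, rno_piR_001200 and rno_piR_005595. These values are descriptions over 19 libraries that share a denominator. Per spike-in UMI, which moves all features of a library together, the medians were 0.28 for piRNA features and 0.30 for miRNAs, with 6 and 3 members over 0.7. The miRNAs then reached 0.79, and rno_piR_005595 at 0.72 lay within their range. Above it were rno_piR_005567 (0.91), rno_piR_001199 (0.85), rno_piR_005608 (0.85), rno_piR_001415 (0.81) and rno_piR_001200 (0.81).

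**Figure D3:**
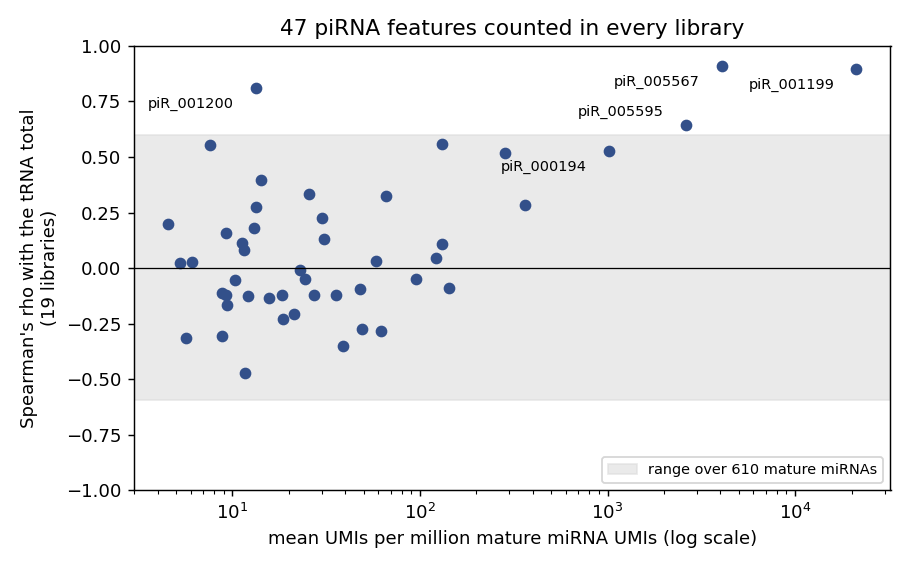
Spearman's rho with the tRNA total over 19 libraries against the mean level (UMIs per 1000000 mature miRNA UMIs, log scale) for the 47 piRNA features counted in every library, with the range over 610 mature miRNAs shaded from -0.59 to 0.60. rno_piR_005567, rno_piR_001199, rno_piR_001200 and rno_piR_005595 lie above the shaded range, and most of the others are near 0.

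Single tRNA genes followed the leading members most closely. Among 235 tRNA features counted in every library, those most like rno_piR_001199 were the glycine tRNA features Chr10.trna10828-GlyGCC (rho = 0.96), Chr17.trna3835-GlyGCC (0.91) and Chr19.trna1668-GlyGCC (0.91), named by chromosome, number, amino acid and anticodon. Those most like rno_piR_005567 were Chr13_random.trna28-GlyGCC (0.98), Chr13_random.trna30-GlyGCC (0.97) and Chr13_random.trna26-GlyGCC (0.94). For rno_piR_005595 they were Chr15.trna3184-PheGAA (0.88), Chr10.trna10825-LysTTT (0.88) and Chr1.trna10115-LysTTT (0.87), a phenylalanine and a pair of lysine tRNAs. The piRNA total was most like Chr10.trna10828-GlyGCC (0.95), Chr19.trna3456-GlyGCC (0.94) and Chr17.trna3835-GlyGCC (0.93). Genes of 1 anticodon can be nearly identical, and how their shared reads were divided was not given, so the single gene is uncertain. For rno_piR_001199 the anticodon is uncertain too, since with genes summed by anticodon GlyCCC (0.89) came ahead of GlyGCC (0.86).

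Mature miRNAs were less like them. Of the 610 compared, the closest to rno_piR_001199 were miR-30b-3p (rho = 0.50), miR-184 (0.44) and miR-211-5p (0.43). For rno_piR_005567 they were let-7d-3p (0.58), miR-3583-3p (0.58) and miR-411-5p (0.57), and for rno_piR_005595 miR-505-3p (0.65), miR-30b-3p (0.64) and miR-184 (0.56). The piRNA total had its highest values with miR-30b-3p (0.54), miR-184 (0.51) and miR-3583-3p (0.45). Each is the highest of a long list, which favours high values, and the list of miRNAs was the longer one.

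Summed by anticodon, the members of the class followed different tRNAs. Glycine and glutamate tRNAs made most of the tRNA UMIs, with a mean of 44.3% for GlyCCC, 30.1% for GlyGCC, 18.1% for GluCTC and 3.74% for GluTTC. rno_piR_001199 was closest to GlyCCC (rho = 0.89, then GlyGCC at 0.86) and rno_piR_005567 to GlyGCC (0.95). rno_piR_000194 was closest to the methionine anticodon MetCAT (0.97), with a rho of 0.53 for the tRNA total. rno_piR_005595 was closest to PheGAA and LysTTT (0.81 for each).

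Further down the order, rno_piR_009003 (0.78) and rno_piR_001415 (0.82) were closest to AspGTC, rno_piR_005787 (0.89) and rno_piR_000119 (0.79) to AlaAGC, and rno_piR_005598 (0.84) and rno_piR_008174 (0.86) to ProAGG. rno_piR_005700 was closest to ValAAC (0.72), rno_piR_005901 to ValTAC (0.77), rno_piR_001198 to AlaCGC (0.75), rno_piR_001414 to IleAAT (0.83) and rno_piR_005359 to SerTGA (0.72). Per spike-in UMI the values were 0.98 for rno_piR_000194 and MetCAT and 0.92 for rno_piR_005567 and GlyGCC, but 0.36 for rno_piR_000119 and AlaAGC, 0.35 for rno_piR_005700 and ValAAC and 0.19 for rno_piR_008174 and ProAGG, so these 3 matches depended on the scale.

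The highest of 41 values is high for any feature. Its median was 0.76 for the 47 piRNA features and 0.71 for the 610 miRNAs, and it exceeded 0.8 for 19 piRNA features (40.4%) and 124 miRNAs (20.3%). The sums by anticodon were chosen after the values were seen and are given without a test.

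**Figure D4:**
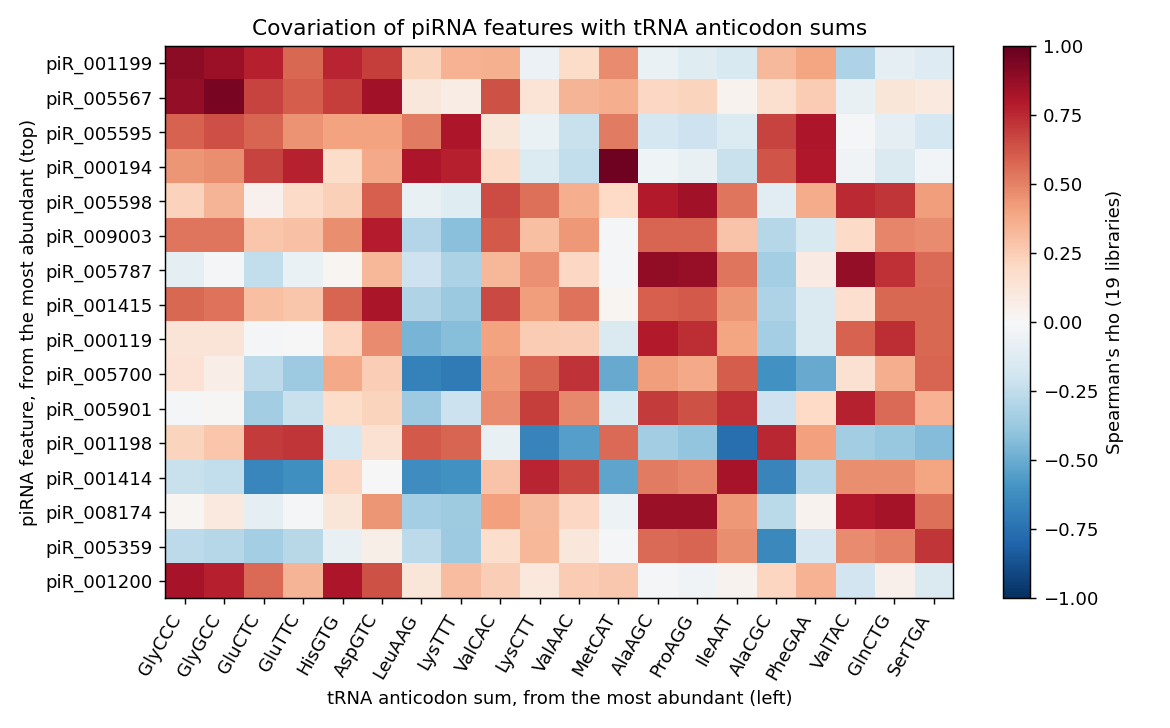
Colour map of Spearman's rho over 19 libraries between the 15 most abundant piRNA features plus rno_piR_001200 (vertical axis) and tRNA UMIs summed by anticodon (horizontal axis, the most abundant at the left), both per 1000000 mature miRNA UMIs. rno_piR_001199 and rno_piR_005567 are dark red at GlyCCC and GlyGCC, rno_piR_000194 at MetCAT (0.97), and rno_piR_005787 and rno_piR_008174 at AlaAGC and ProAGG.

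As amounts, these pairs differed widely. rno_piR_005567 had 1.06 to 1.58 UMIs per 100 UMIs of GlyGCC tRNAs, with a coefficient of variation of 10.2%, against 36.6% for its own level. Its ratio was 1.34 ± 0.141 (SD, n = 4) in the naive group, 1.41 ± 0.118 (SD, n = 5) in the sham-operated group, 1.33 ± 0.203 (SD, n = 5) in the mTBI group and 1.45 ± 0.0819 (SD, n = 5) in the sTBI group. rno_piR_001199 had 1.61 to 3.91 UMIs per 100 UMIs of GlyCCC and GlyGCC tRNAs, with 3.48 ± 0.496 (SD, n = 4) in the naive group and 2.18 ± 0.650 (SD, n = 5) in the mTBI group, so it did not keep one ratio. rno_piR_000194 had 138 to 401 UMIs per 100 UMIs annotated as MetCAT tRNA, so in this pair the piRNA entry held more UMIs than the tRNA features in every library.

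The members did not move as one. Among the 15 most abundant, rno_piR_009003 and rno_piR_001415, both closest to AspGTC, had a rho of 0.91 with each other, rno_piR_005787 and rno_piR_008174 had 0.90, rno_piR_000119 and rno_piR_008174 0.87, and rno_piR_001199 and rno_piR_005567 0.83. Others ran against each other, with -0.86 for rno_piR_001198 and rno_piR_001414 and -0.41 for rno_piR_001199 and rno_piR_005359. rno_piR_001198, rno_piR_001199 and rno_piR_001200 have neighbouring numbers, and rno_piR_001199 had a rho of only 0.29 with rno_piR_001198. In contrast, rno_piR_001199 and rno_piR_001200 were both closest to GlyCCC (0.89 and 0.83) and both followed the tRNA total (0.90 and 0.81). These too are descriptions over 19 libraries.

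Few single piRNA features differed between groups. Of the 104, 78 passed the filter on low counts and were tested with edgeR's quasi-likelihood test on UMI counts, in 1 fit of all 791 features tested in the table with TMM library factors and Benjamini-Hochberg adjustment over those 791. In sham-operated controls against naive rats 1 piRNA feature was called, which was higher. Of all features tested 2.02% were called there, 1.77% as higher, and 7 members were at an unadjusted p under 0.05 against 17.8% of all features. In mTBI against naive rats 1 was higher and 1 lower. Of all features 2.15% were called there, 2.02% as higher and 0.126% as lower, and 9 members were at an unadjusted p under 0.05 against 7.71% of all features. In sTBI against naive rats edgeR called 0 members, where 4.05% of all features were called, 12 members were at an unadjusted p under 0.05 against 22.3% of all features, and DESeq2 called 4. In mTBI against sham-operated controls edgeR called 0 members (0.126% of all features), with 3 at an unadjusted p under 0.05 against 9.86% of all features and 0 called by DESeq2. In sTBI against sham-operated controls it called 0 (1.64%), with 2 at an unadjusted p under 0.05 against 6.7% and 0 called by DESeq2. In sTBI against mTBI it called 0 (2.53%), with 3 at an unadjusted p under 0.05 against 14.9% and 1 called by DESeq2. The shares of members called were 1.28% and 2.56% in the first pair of comparisons, near the background. Shares over all features were computed only for this edgeR fit. The DESeq2 counts therefore have no background here and cannot be set against the edgeR shares.

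The median log2 fold change of the 78 members was close to that of all 791 features, 0.05 against 0.04 for sham-operated controls and naive rats, 0.10 against -0.03 for mTBI and naive rats, 0.15 against 0.07 for sTBI and naive rats, -0.01 against 0.02 for mTBI and sham-operated controls, -0.02 against 0.02 for sTBI and sham-operated controls and 0.04 against 0.06 for sTBI and mTBI. The first 3 comparisons share the naive rats.

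rno_piR_005359, the lowest of the 15 most abundant features, was higher in sham-operated controls and after mTBI than in naive rats, and was not called after sTBI. Its levels were 31.1, 35.8, 20.5 and 39.0 CPM in naive rats and 52.4, 59.9, 65.4, 53.3 and 74.7 in sham-operated controls. After mTBI they were 56.2, 40.3, 53.7, 58.4 and 51.5, and after sTBI 46.3, 49.7, 42.4, 58.9 and 39.0. All sham-operated and mTBI libraries lay above all naive ones, while sTBI 5 overlapped with the naive group. The log2 fold change was 0.70 (SE 0.17, adjusted p = 0.0272 with edgeR) in sham-operated controls and 0.71 (SE 0.17, adjusted p = 0.0233 with edgeR) after mTBI against naive rats. After sTBI it was 0.29 (SE 0.17, edgeR adjusted p = 0.295). sTBI differed by -0.41 from sham-operated controls (SE 0.16, edgeR adjusted p = 0.343) and by -0.42 from mTBI (SE 0.16, edgeR adjusted p = 0.261).

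Both calls of rno_piR_005359 were close to the threshold. The first, in sham-operated controls, was lost without naive 1, 2 or 3 or sham 2, 3 or 5 (edgeR adjusted p = 0.0521 to 0.193). The second, after mTBI, was lost without naive 2 or 3 or mTBI 4 or 5 (edgeR adjusted p = 0.0572 to 0.145). With the replicate number as a block the edgeR adjusted p was 0.0946 and 0.0931, and without the 4 libraries of high miRNA to spike-in ratio it was 0.286 and 0.392. DESeq2 called both, and also the lower level after sTBI than after mTBI.

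rno_piR_001200, a feature of mean level 13.3 CPM that followed the tRNA total, was lower after mTBI than in naive rats. It was at 8.13, 28.9, 18.3 and 28.7 CPM in naive rats and at 4.05, 12.6, 8.20, 3.25 and 5.28 after mTBI. The sham-operated controls had 19.3, 17.6, 10.5, 14.5 and 12.5, and the sTBI libraries 10.5, 14.8, 6.70, 12.5 and 16.7. Naive 1 lay within the mTBI range, and the other naive libraries lay above it. The log2 fold change of mTBI against naive rats was -1.57 (SE 0.40, edgeR adjusted p = 0.0425), on counts of 11 to 53 UMIs after mTBI and 41 to 84 in naive rats. The call was lost without naive 2, 3 or 4 or mTBI 1, 3, 4 or 5 (edgeR adjusted p = 0.0757 to 0.157). Against naive rats, sTBI was at -0.99 (SE 0.39, edgeR adjusted p = 0.155), and mTBI against sham-operated controls at -0.89 (SE 0.39, edgeR adjusted p = 0.492).

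rno_piR_001199 itself was not called in any comparison. It was at 13815, 41974, 42530 and 42370 CPM in naive rats, with replicate 1 far below the others. The sham-operated controls were at 34766, 21038, 12808, 19442 and 23841. After mTBI it was at 4685, 31946, 12864, 6018 and 7965, and after sTBI at 15716, 16811, 13697, 19120 and 20627. The 3 other naive libraries lay above all other libraries of the series. The log2 fold change was -1.39 (SE 0.50, edgeR adjusted p = 0.401) after mTBI and -1.30 (SE 0.50, edgeR adjusted p = 0.151) after sTBI against naive rats. Without mTBI 2 the comparison of mTBI with naive rats had 4 called members, rno_piR_001199, rno_piR_001200 and rno_piR_005567 lower and rno_piR_005359 higher. Without the 4 libraries of high miRNA to spike-in ratio, rno_piR_001199 and rno_piR_001200 were called there, both lower. rno_piR_001199 was also called lower in sTBI when only the sTBI and naive libraries were fitted. The share of all features called in each of these fits was not computed.

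rno_piR_005567 had 2348, 7428, 5659 and 5482 CPM in naive rats, 4840, 3563, 3709, 4999 and 5565 in sham-operated controls, 1572, 4297, 4246, 2105 and 1780 after mTBI and 4621, 4024, 2963, 4420 and 3734 after sTBI. As for rno_piR_001199, the other naive libraries were high and naive 1 was low. Its log2 fold change was -0.86 (SE 0.31, edgeR adjusted p = 0.375) after mTBI and -0.68 (SE 0.31, edgeR adjusted p = 0.207) after sTBI against naive rats.

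rno_piR_005595 was at 1615, 3592, 7113 and 3014 CPM in naive rats, at 4456, 2924, 2545, 2385 and 1113 in sham-operated controls, at 1811, 4946, 1136, 646 and 1669 after mTBI and at 2079, 2323, 2517, 2154 and 1538 after sTBI. Naive 3 and mTBI 2 were the highest, and sTBI against naive rats was at -1.22 (SE 0.56, edgeR adjusted p = 0.209). rno_piR_000194 was highest in the same libraries, at 3162 CPM in naive 3 and 3824 in mTBI 2, against 1457 or less in all others. These are 2 of the 4 libraries with a high miRNA to spike-in ratio, and the part of that ratio in this result was not tested.

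rno_piR_005787 had 81.7, 117, 60.6 and 125 CPM in naive rats, 156, 132, 174, 219 and 174 in sham-operated controls, 184, 103, 140, 113 and 77.6 after mTBI and 212, 163, 170, 186 and 124 after sTBI. The sham-operated controls lay above all naive libraries, and the mTBI libraries overlapped with both. It did not pass with edgeR in sham-operated controls (log2 fold change 0.59, SE 0.18, adjusted p = 0.0929) or after sTBI (0.55, SE 0.18, adjusted p = 0.0921) against naive rats, while DESeq2 called it in both, as did edgeR without naive 4 (adjusted p = 0.0377 and 0.0412). The other features of the 15 most abundant were not called in any of the 6 comparisons.

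**Figure D5:**
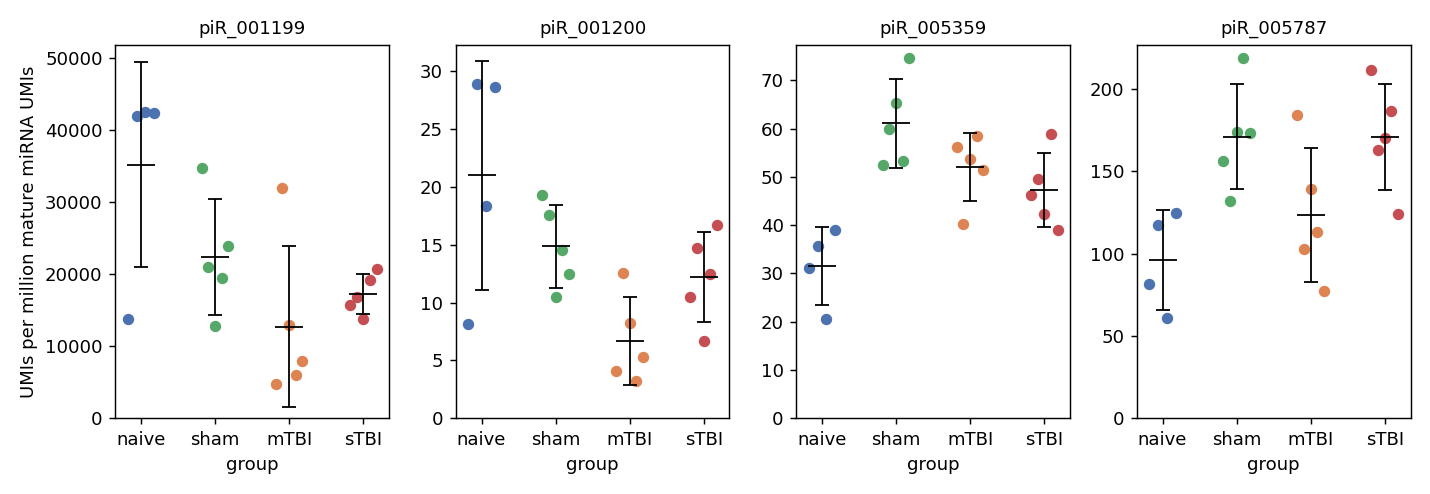
UMIs per 1000000 mature miRNA UMIs of 4 piRNA features by group, with 1 point per library and the mean and SD as lines (n = 4 naive, 5 in each other group). rno_piR_005359 is higher in all sham-operated and mTBI libraries than in any naive one, and for rno_piR_001199 naive 1 (13815) lies far below the other naive libraries.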

How the data were processed

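Plasma small RNA was sequenced with a kit that adds UMIs, 1 library per rat, and the 19 libraries were grouped by their labels (naive 4, sham-operated 5, mTBI 5, sTBI 5). Per the study's methods and the labels, the authors trimmed reads with cutadapt, discarded inserts under 16 bp and UMIs under 10 bp, and aligned with Bowtie against miRBase v21 and other RNA classes and Rnor_6.0 in the GeneGlobe portal. Versions of these tools were not given in the sources used here. The tables deposited by the authors give, for every feature, counts of reads and counts of UMIs, with no normalization. The table of other RNAs was not used here. The 104 piRNA features held 97.0 to 99.7% of the reads of the piRNA class in the deposited summary. No column of another series was present.

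Levels are UMIs divided by the mature miRNA UMIs of the library. Features were tested with edgeR 4.0.16 (R 4.3.3, limma 3.58.1): filterByExpr by group with a minimum count of 10, TMM factors, a robust quasi-likelihood fit of all 19 libraries, and Benjamini-Hochberg adjustment at 0.05 over 791 features. Library totals were compared with permutation tests in Python 3.11.15 (numpy 2.4.6, pandas 2.3.3, scipy 1.17.1, with matplotlib 3.10.9 for plots). Of these procedures, only the edgeR test was tried on simulated data, in 1 simulation of sTBI against naive rats. The text names the 15 most abundant piRNA features, each one called, and the 3 tRNA and 3 miRNA features most like the leading 3 and the total. Features named outside this rule were chosen after their values were seen. The members and lists were chosen with earlier results of these data known. Alternatives were read counts, no low-count filter, RLE factors, unscaled totals, spike-in totals, piRNA features alone, the replicate block, the groups compared alone, DESeq2 1.42.0, leaving out the 4 libraries with a high miRNA to spike-in ratio and leaving out each library. A further 2 alternatives were chosen after seeing the data, namely leaving out the 4 most abundant piRNA features and using no denominator. Each SD is the spread between rats, biological and technical variation together.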

Additional observations from a re-analysis of the deposited data

Results flagged for a closer look

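In 9 of the 80 groups of values examined, 1 library lay far from the others of its group by a gap test that chance passes in about 1 in 20 groups. Naive 1 had the lowest piRNA total of the naive rats, 20189 UMIs per 1000000 mature miRNA UMIs against 53349 to 60046 in the others, and the lowest rno_piR_001199, 13815 against 41974 to 42530. mTBI 2 had the highest piRNA total after mTBI, 46705 against 10880 to 20824, and the highest rno_piR_005595 (4946 against 646 to 1811) and rno_piR_000194 (3824 against 152 to 494). Sham 5 had the highest rno_piR_009003 of its group, 596 against 224 to 311, and the highest rno_piR_001415, 325 against 112 to 141. After sTBI, rno_piR_005901 was highest in replicate 3 (184 against 78.3 to 109) and rno_piR_001414 in replicate 2 (81.4 against 63.5 to 68.4).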

How the results depend on the processing

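Over 32 results, 529 of 624 alternative values kept their direction and side of the threshold or, for counts of calls, the number called. A named feature entered only for comparisons where its unadjusted edgeR p was under 0.05, so small changes were not examined. None of the log2 fold changes that entered reversed. The 3 calls were near the threshold: rno_piR_005359 lost its call in sham-operated controls against naive rats in 13 of 19 alternatives and after mTBI in 9 of 19, and rno_piR_001200 in 10 of 19. The causes were not tested.

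In sham-operated controls against naive rats, the number of called members (1) was 0 with read counts, RLE factors, spike-in totals, piRNA features alone, the replicate block, the 2 groups alone or without the 4 libraries with a high miRNA to spike-in ratio, 2 with unscaled totals or DESeq2, and 0 to 3 with each library left out. In mTBI against naive rats (2) it was 1 with read counts, unscaled totals, spike-in totals, piRNA features alone or the replicate block, 0 with the 2 groups alone, and 0 to 4 with each library left out. In sTBI against naive rats (0) it was 2 with the replicate block, 2 with the 2 groups alone, 4 with DESeq2, and 0 to 3 with each library left out, the 3 without naive 4. In sTBI against mTBI (0) it was 1 with spike-in totals or DESeq2, and 0 to 1 with each library left out. The shares of all features called under these alternatives were not computed. The labels do not say whether replicate numbers pair the rats, and no pairing was seen in the mean correlation of deviations. It was 0.02 over 27 pairs of same-numbered libraries, from -0.61 to 0.60, and -0.004 over 108 pairs of other numbers. Such a mean cannot settle the question. The block changed the calls only as given here.

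Per spike-in UMI, the log2 difference of the class total was -1.30 for sTBI against naive rats (adjusted exact permutation p = 0.0476) and -0.0115 for sTBI against mTBI, a reversal. With no denominator, sTBI against naive rats was at -0.91 (adjusted exact permutation p = 0.0476). Without the 4 most abundant features the differences reversed to 0.33 for sham-operated controls, 0.0367 for mTBI and 0.39 for sTBI against naive rats and 0.0553 for sTBI against sham-operated controls, and the correlation with the tRNA total was 0.12. The adjusted permutation p over the 4 groups was 0.00744 without the 4 libraries. With each library left out it was 0.0298 to 0.245, the correlation 0.945 to 0.962, and the log2 differences -0.82 to -0.30 (sham-operated controls against naive rats), -1.71 to -1.17 (mTBI against naive), -1.10 to -0.58 (sTBI against naive), -1.25 to -0.72 (mTBI against sham-operated controls), -0.42 to -0.14 (sTBI against sham-operated controls) and 0.44 to 0.96 (sTBI against mTBI). Unscaled totals moved the median of all features by up to 0.32 and spike-in totals by up to -0.34 on the log2 scale.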

Other observations

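A pair of less abundant piRNA features, chosen after their values were seen, shared their closest tRNA anticodon. rno_piR_022904 and rno_piR_000219 were both closest to the ArgTCT sum, with a rho of 0.91 and 0.89 over 19 libraries (0.61 and 0.73 per spike-in UMI), followed by ValTAC (0.88 and 0.85) and TyrGTA (0.84 and 0.79). rno_piR_022904 was at 4.96, 13.8, 6.85 and 6.91 UMIs per 1000000 mature miRNA UMIs in naive rats and at 34.4, 46.5, 62.5, 15.2 and 15.2 after sTBI, so all sTBI libraries lay above all naive ones. edgeR did not call it (log2 fold change 1.85, SE 0.61, adjusted p = 0.104), while DESeq2 did, as did edgeR with the replicate number as a block or with only the sTBI and naive libraries fitted. mTBI 1 had the highest value of all libraries, 66.1, and the other mTBI libraries were at 6.14 to 11.8.

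rno_piR_025314, with a mean of 23.0 CPM and closest to AlaAGC (rho = 0.92, but 0.46 per spike-in UMI), was at 12.1, 19.9, 7.33 and 18.7 in naive rats and at 56.5, 38.0, 20.1, 38.7 and 17.3 after sTBI. The groups overlapped, and the log2 fold change of 0.94 did not pass (SE 0.28, edgeR adjusted p = 0.0577). It was called by DESeq2, by edgeR with the replicate number as a block, and by edgeR without sTBI 3, without sTBI 5 or without naive 4.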
